A study of Homo sapiens with 18 samples.

Results

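The genes described here are 8 markers of the midbrain and of the isthmus, the signalling centre at the border of midbrain and hindbrain. They are the homeobox genes EN1 and EN2, the paired-box genes PAX2, PAX5 and PAX8, the LIM-homeobox genes LMX1A and LMX1B, and CNPY1, and they were found by symbol among the 37550 rows of an expression table. Expression was measured by bulk poly-A RNA sequencing in 18 libraries of H1, an established human pluripotent stem cell line, in 9 groups of 2 biological replicates each. No label says which cultures the replicates came from, so p-values measure the spread between these samples.

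The first group, hPSC, was undifferentiated H1 at day 0. The anterior type of neural ectoderm (aNE) and the posterior type (pNE) were collected at day 2, after a shared day in a definitive ectoderm medium that held the TGF-beta receptor inhibitor A8301, the BMP receptor inhibitor LDN193189, the MEK inhibitor trametinib and the porcupine inhibitor C59, which blocks WNT secretion. On the second day aNE received A8301, LDN193189 and C59 at 1 µM. pNE received A8301 and LDN193189 with XAV939 at 1 µM, a tankyrase inhibitor that lowers WNT signalling, FGF2 at 20 ng/mL, and 50 nM of TTNPB, which activates retinoic acid receptors. Both media also held thiazovivin, a ROCK inhibitor. Cells of each origin were then carried to day 4 in forebrain medium (aNE_T, pNE_T), midbrain medium (aNE_M, pNE_M) or hindbrain medium (aNE_H, pNE_H). The forebrain medium held XAV939, LDN193189 and FGF2. What the midbrain and hindbrain media held is not given in the sources used here. Plating was at 37500 cells per cm2 for collection at day 2. For collection at day 4, aNE cells were plated at 75000 per cm2 and pNE cells at 150000 per cm2, so at day 4 origin and plating density cannot be told apart. Density also differed between day 2 and day 4. A change from day 2 to day 4 therefore cannot be told apart into medium, time and density, and neither can its difference between origins.

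In the embryo, OTX2 in front and GBX2 behind meet at the isthmus, where FGF8, its relatives FGF17 and FGF18, and WNT1 are made. PAX2, PAX5 and PAX8 are related paired-domain transcription factors, and EN1 and EN2 are homeodomain factors that act with them to keep the midbrain and anterior hindbrain territory. LMX1B takes part in forming the isthmus and LMX1A is known from the roof plate and from progenitors of midbrain dopaminergic neurons. CNPY1 encodes a protein that promotes FGF signalling at the isthmus, as known from zebrafish. PAX2 and PAX8 are also used by the inner ear and kidney primordia.

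The table held TPM values, a transcript level corrected for length whose sum is the same in each library. TPM keeps no read number, so the depth behind each value is unknown. Between 13686 and 14679 genes reached 1 TPM per library, and replicates correlated at Pearson's r of 0.982 to 0.987 across genes, which are not independent replicates. Differences are on the log2(TPM + 1) scale, which understates changes of low genes, with the standard error (SE) of a limma fit to 17033 genes that reached 1 TPM in 2 or more libraries. A gene was called at a Benjamini-Hochberg adjusted p under 0.05 and a difference of at least 1. In bulk RNA, fewer cells that express a gene and less RNA per cell cannot be told apart.

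All 8 members passed the filter, but EN1, EN2 and CNPY1 did so only through aNE_M, PAX8 only through pNE_H and LMX1A only through day-2 aNE. For these 5 a difference was bound to appear, so counts over the members are descriptions. The summed TPM of the 8 genes was 347 to 355 in aNE_M, 38.8 to 40.2 in pNE_M, 17.4 to 25.6 in aNE_H and 11.9 to 16.8 in pNE_H. In the other 10 libraries it lay between 1.53 and 9.41. The label was set beside these levels: EN1, EN2, PAX2, PAX5, LMX1B and CNPY1, 6 of the 8, were highest in aNE_M. The members were chosen with earlier results of these data known, and EN1, EN2 and CNPY1 reached 1 TPM in aNE_M alone. This is therefore a description and no test of the label. PAX8 and LMX1A went against the label, since PAX8 was highest in pNE_H and LMX1A in day-2 aNE.

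**Figure D1:**
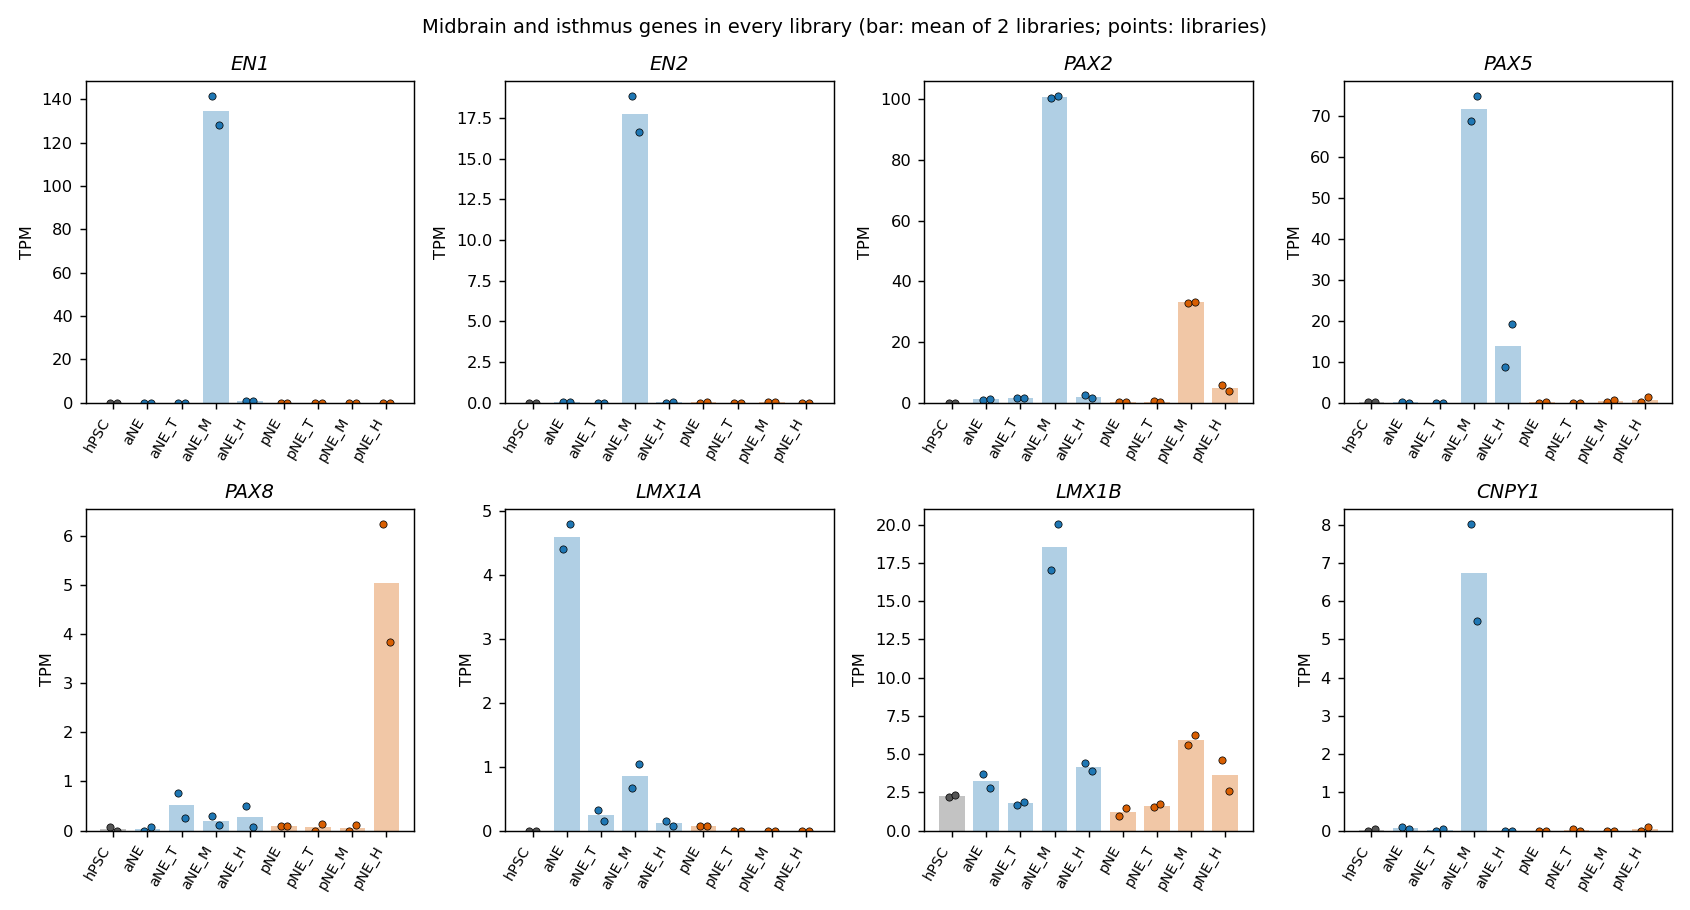
TPM (linear y axis from 0, a separate scale per gene) of the 8 genes in the 9 groups on the x axis; bars are means of 2 libraries and points the libraries (grey hPSC, blue anterior origin, orange posterior origin). EN1, EN2 and CNPY1 stand up in aNE_M alone, PAX2 and LMX1B also in pNE_M, PAX5 also in aNE_H, PAX8 in pNE_H and LMX1A in day-2 aNE.

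Positions are from RefSeq on GRCh38.p14, the assembly that the submitters' notes call hg38. EN2 lies at chr7:155458129-155464831 and CNPY1 at chr7:155501129-155546559, 36.3 kb apart with no gene of GENCODE v29 between them. EN1 lies at chr2:118842171-118847648, PAX8 at chr2:113215997-113278921, PAX2 at chr10:100735396-100829944, PAX5 at chr9:36833269-37034268, LMX1B at chr9:126613928-126701032 and LMX1A at chr1:165201867-165356715. PAX8 overlaps the antisense gene PAX8-AS1, and PAX5, LMX1A and CNPY1 also overlap antisense transcripts. Whether the quantification used strand is not stated, so those 4 genes' values are uncertain to that extent.

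EN2 and CNPY1 are neighbours and followed nearly the same pattern, so 250 bases before annotated starts are shown, 5′ to 3′ on the gene's strand. The windows are chr7:155457879-155458128 (plus strand) for EN2, and chr7:155533863-155534112 and chr7:155509875-155510124 (minus strand) for the first and the third of 3 starts of CNPY1 given by RefSeq. These 2 CNPY1 windows were chosen because each holds a motif match. The window of the second start, chr7:155510163-155510412, overlaps an exon of AC008060.2, holds no match and is not printed. All 3 CNPY1 windows lie within the gene's interval given above, which ends upstream of them at 155546559. No window lies before that end. Capitals mark the matches to the motifs searched on both strands.
EN2: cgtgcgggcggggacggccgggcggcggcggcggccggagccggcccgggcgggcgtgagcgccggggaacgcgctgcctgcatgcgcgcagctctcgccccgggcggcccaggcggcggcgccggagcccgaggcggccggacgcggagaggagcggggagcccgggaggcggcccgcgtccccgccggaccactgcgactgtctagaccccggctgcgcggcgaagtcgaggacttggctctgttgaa
CNPY1 start 1: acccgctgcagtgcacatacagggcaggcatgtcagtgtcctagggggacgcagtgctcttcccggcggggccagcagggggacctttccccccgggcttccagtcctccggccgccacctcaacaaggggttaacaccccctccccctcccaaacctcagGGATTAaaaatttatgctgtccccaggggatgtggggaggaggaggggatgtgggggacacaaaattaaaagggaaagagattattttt
CNPY1 start 3: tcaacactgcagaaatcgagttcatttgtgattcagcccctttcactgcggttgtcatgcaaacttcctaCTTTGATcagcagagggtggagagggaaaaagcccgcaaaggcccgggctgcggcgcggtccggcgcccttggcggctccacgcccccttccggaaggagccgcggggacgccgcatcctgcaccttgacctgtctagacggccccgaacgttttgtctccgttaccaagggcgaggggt
The motifs were TAATCC (OTX), TAATTA (homeodomain) and CTTTGAT and CTTTGAA (TCF/LEF). Over the 11 windows of 7 members that RefSeq's table holds, TAATCC matched once, on the opposite strand, starting 89 bases before the first CNPY1 start. CTTTGAT matched once, starting 180 bases before the third. TAATTA and CTTTGAA matched in none of the 11. Of 35116 windows of the same length, 5.6% held TAATCC, 4.3% TAATTA, 2.3% CTTTGAT and 3.8% CTTTGAA. The EN2 window was 81.2% G and C, against a median of 58.0% over all windows. A match describes the letters and is not a binding site.

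At day 2 the members were low in both ectoderms. Against hPSC, 2 of 8 were called higher in aNE and none lower, where 13.5% of all tested genes were called in either direction. LMX1A was 4.41 and 4.80 TPM in aNE and listed at 0 in both hPSC libraries (adjusted p = 2.09e-07, limma). PAX2 was 1.04 and 1.36 TPM in aNE and listed at 0 in hPSC (adjusted p = 2.44e-04); with quantile normalization it fell just under the size threshold. In pNE against hPSC no member was called (12.9% of all genes were). There 2 members had an unadjusted p under 0.05 and 1, LMX1B, an adjusted p under 0.05.

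pNE against aNE gave 1 call, LMX1A, which was lower, against 3.85% of all genes. Its levels in pNE were 0.0665 and 0.0719 TPM, a difference of −2.39 ± 0.18 (SE; adjusted p = 9.83e-07). The groups did not overlap for LMX1A, nor for PAX2, PAX8, LMX1B and CNPY1, which were not called. The share of all genes without overlap is not given, so this adds no support. PAX8 and CNPY1 were at or under 0.101 TPM in both groups. LMX1A passed the filter only through aNE, so a difference was bound to appear for it here and against hPSC. LMX1B was 0.919 and 1.50 TPM in pNE and 3.68 and 2.80 TPM in aNE. Its difference of −0.94 ± 0.21 (adjusted p = 0.00871) missed the size threshold, but passed it without aNE replicate 2 (−1.09) or without pNE replicate 2 (−1.14). The boundary factors separated these groups more: GBX2, a hindbrain-side factor, was 172 and 216 TPM in pNE and 1.04 and 1.05 TPM in aNE, a difference of 6.56 ± 0.20. OTX2, the forebrain and midbrain factor, was 203 and 214 TPM in aNE and 28.3 and 26.6 TPM in pNE (−2.88 ± 0.14).

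In the midbrain medium, anterior-derived cells raised 6 of the 8 genes above day-2 aNE, and 1 fell. Of all tested genes 12.0% were called in this comparison, and 4.34% of all tested genes were called higher. For EN1, EN2 and CNPY1, which passed the filter only through aNE_M, a rise was bound to appear. EN1 reached 141 and 128 TPM (mean 135 ± 9.45 SD, n = 2), from values listed at 0 in both aNE libraries (adjusted p = 5.43e-12). In the aNE_M libraries EN1 lay at or above 93.6% and 92.7% of tested genes, and PAX2 at or above 90.6% and 90.5%. EN2 was 18.8 and 16.6 TPM, against 0.0481 and 0.0472 TPM at day 2, a difference of 4.16 ± 0.16 (adjusted p = 6.53e-10). EN1 exceeded its paralog EN2 by 7.51 and 7.70 times in TPM, so both libraries gave nearly the same ratio.

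PAX2 was 100.4 and 101 TPM in aNE_M against 1.04 and 1.36 TPM in aNE, 84.0 times the day-2 mean and a log2 difference of 5.54 ± 0.18 (adjusted p = 1.23e-10). PAX5 was 68.6 and 74.7 TPM against 0.129 and 0.0652 TPM, a difference of 6.05 ± 0.35 (adjusted p = 2.42e-08). The third relative behaved otherwise: PAX8 was 0.296 and 0.107 TPM in aNE_M and was not called. CNPY1, the FGF-pathway gene, was 8.02 and 5.47 TPM against 0.101 and 0.0328 TPM (2.84 ± 0.19, adjusted p = 1.05e-07). LMX1B rose from 3.68 and 2.80 TPM to 17.0 and 20.0 TPM (2.21 ± 0.21, adjusted p = 2.98e-06), while LMX1A fell to 0.667 and 1.04 TPM (−1.60 ± 0.18, adjusted p = 1.12e-05). LMX1B thus stood 25.5 and 19.2 times above LMX1A in the aNE_M libraries.

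Genes of other cell types moved in the same comparisons. Of 10 neural crest genes, 5 rose and 1 fell in aNE_M against aNE, with a median of 0.94 against −0.02 over all genes. PAX3, a dorsal neural tube and crest factor, led at 120 and 130 TPM against 0.475 and 0.601 TPM (6.36 ± 0.22). The list's summed TPM was 25.6 to 27.1 in aNE, 188 to 205 in aNE_M and 225 to 245 in aNE_H. In pNE_M against pNE 7 of the 10 rose and none fell (median 1.51 against −0.06), among them PAX3 (4.74 ± 0.22) and FOXD3 (3.64 ± 0.22), and the sum went from between 30.8 and 38.9 to between 150 and 159 TPM.

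Of 12 roof plate genes 8 were tested, and MSX1, MSX2 and ZIC1 rose in aNE_M and in pNE_M over their day-2 cells and none fell, with list medians of 0.30 and −0.49. MSX1 is also in the floor plate list. Of 10 forebrain genes, 7 fell and 1 rose in aNE_M against aNE, led by FEZF1 (−6.47 ± 0.24), with a median of −3.60, and 7 fell and none rose in pNE_M against pNE. The part of these genes in the members' changes was not tested.

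The 6 members that rose were also called higher in aNE_M than in aNE_T (10.1% of all genes were called, 3.50% higher) and than in aNE_H (4.92% called, 2.65% higher). For EN1, EN2 and CNPY1, which passed the filter only through aNE_M, this was bound to appear. EN1 in aNE_H was 0.989 and 0.749 TPM, and aNE_M exceeded it by 6.18 ± 0.15 (adjusted p = 4.14e-11). PAX5 was 8.77 and 19.1 TPM in aNE_H, the one member besides LMX1B above 3 TPM there. Its aNE_M minus aNE_H difference of 2.37 ± 0.35 (adjusted p = 3.51e-04) was not called in a fit of the compared libraries alone (adjusted p = 0.110) or with a pseudocount of 0.1 (adjusted p = 0.057); over all alternatives the adjusted p ranged from 1.8e-04 to 0.110.

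Posterior-derived cells in the midbrain medium raised 2 of the 8 members over day-2 pNE and lowered none, where 12.7% of all genes were called and 4.87% were higher. PAX2 went from 0.369 and 0.276 TPM to 33.0 and 33.1 TPM, 103 times the day-2 mean (4.69 ± 0.18, adjusted p = 5.91e-10). LMX1B went from 0.919 and 1.50 TPM to 5.57 and 6.22 TPM (1.65 ± 0.21, adjusted p = 4.04e-05). EN1, CNPY1 and LMX1A were listed at 0 in both pNE_M libraries. EN2 was 0.0405 and 0.0239 TPM, and PAX5 0.198 and 0.749 TPM. PAX2 exceeded LMX1B by 5.93 and 5.32 times in pNE_M, and by 5.89 and 5.04 times in aNE_M.

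Set directly against aNE_M, 6 of 8 members were lower in pNE_M and none higher (5.74% of all genes were called, 2.55% lower). This was bound to appear for EN1, EN2 and CNPY1, which passed the filter only through aNE_M. PAX2 differed by −1.58 ± 0.18 (adjusted p = 3.32e-05) and LMX1B by −1.50 ± 0.21 (adjusted p = 2.04e-04), less than PAX5 at −5.65 ± 0.35 and EN2 at −4.18 ± 0.16. The 2 libraries of each group did not overlap for the 6 called members, nor for PAX8 and LMX1A, which were not called. The share of all genes without overlap is not given, so this adds no support. Hindbrain genes moved with this comparison: 9 of 12 of that list were higher in pNE_M, led by HOXB1 (8.39 ± 0.13), and their summed TPM was 853 to 854 in pNE_M and 12.2 to 18.7 in aNE_M. Of the neuron genes, 4 of 8 tested were lower in pNE_M and 1 higher: GAD1 was 109 and 102 TPM in aNE_M and 31.0 and 31.9 TPM in pNE_M, and STMN2 20.4 and 22.4 TPM against 0.735 and 0.597 TPM. The part of these genes in the members' difference was not tested.

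**Figure D2:**
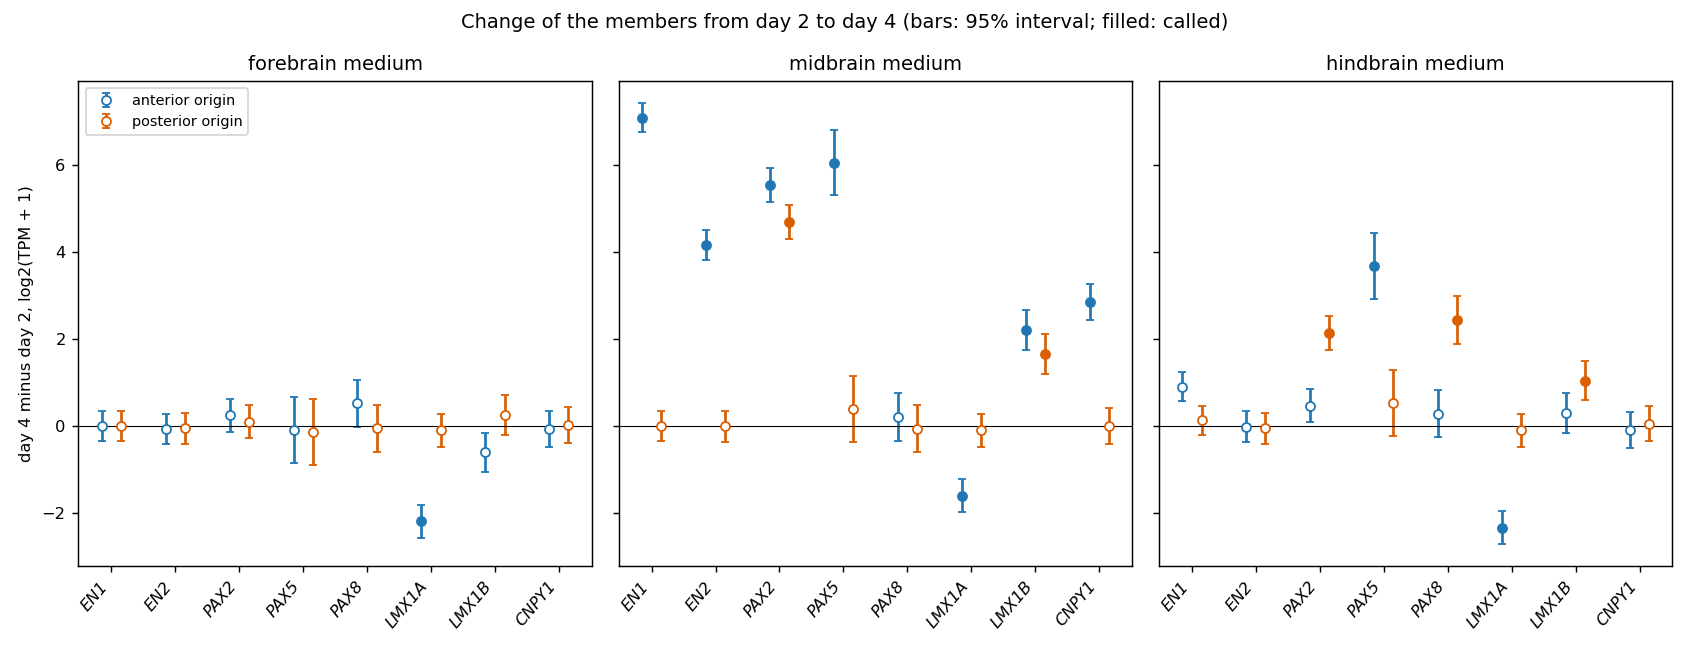
Difference between day 4 and day 2 in log2(TPM + 1) (y axis) for the 8 genes (x axis) in the 3 media, for anterior (blue) and posterior (orange) origin; bars are 95% intervals, and filled points were called. In midbrain medium, PAX2 and LMX1B are filled for both origins, while EN1, EN2, PAX5 and CNPY1 are filled for anterior origin; EN1 was listed at 0 in both day-2 groups, so its height depends on the pseudocount.

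Whether the response to midbrain medium differed between origins was tested as the posterior-derived change minus the anterior-derived change. EN1, EN2, PAX5 and CNPY1 were called with a smaller change in posterior-derived cells and LMX1A with a larger one, 5 of 8 members against 7.02% of all genes. EN1, EN2 and CNPY1 passed the filter only through aNE_M and LMX1A only through aNE, both part of this contrast. A difference was bound to appear for them, so the count is a description. For EN2 the difference of changes was −4.16 ± 0.23 and for PAX5 −5.66 ± 0.49 (adjusted p = 9.24e-08 and 4.62e-06). For LMX1A the larger value came from the fall in anterior-derived cells, since pNE held under 0.1 TPM and pNE_M was listed at 0; its call was lost with a pseudocount of 0.1 (adjusted p = 0.241, range over alternatives from 2.72e-05). PAX2 was not called: its difference of −0.85 (95% interval −1.40 to −0.30, adjusted p = 0.0422) missed the size threshold, and with a pseudocount of 0.1 it turned to 0.014. LMX1B was not called either, at −0.56 (95% interval −1.20 to 0.09, adjusted p = 0.265). These intervals do not show that the responses were alike.

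The isthmus signals and their response genes formed a list of 12, of which 11 were tested. In aNE_M against aNE, 10 rose and none fell, with a median log2 difference of 2.81 against −0.02 over all genes. FGF17, a secreted FGF, went from 0.0955 and 0.0513 TPM to 86.1 and 74.3 TPM (6.24 ± 0.18), and the FGF-response genes SPRY4 (4.45 ± 0.10), IL17RD (3.77 ± 0.08) and ETV5 (3.0 ± 0.11) rose with it. The same count, 10 of 11 higher, was found in aNE_H against aNE (median 2.89) and in aNE_T against aNE (median 3.06, against 0.00 over all genes), comparisons that share the aNE libraries. Part of this list was already lowered in aNE: against hPSC, 5 of 11 were lower and 1 higher (median −0.80 against 0.06). SPRY4 was 53.1 and 61.4 TPM in hPSC and 6.40 and 5.03 TPM in aNE. ETV4 was 157 and 164 TPM in hPSC, 10.7 and 12.2 TPM in aNE and 92.9 and 88.2 TPM in aNE_M. In aNE_T no member was called higher, and in aNE_H PAX5 was the only one. In pNE_M against pNE 3 of 11 rose, with a median of 0.52 against −0.06: FGF17, at 28.7 and 23.2 TPM (4.28 ± 0.18), IL17RD (1.41 ± 0.08) and SPRY2 (1.28 ± 0.08). Day-2 pNE already held 8 of these genes above aNE and 1, FGF8, below it. The pNE medium differed from that of aNE by FGF2, by TTNPB and by XAV939 in place of C59, which cannot be told apart.

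FGF8, the best known isthmus signal, did not follow the members. It was 77.5 and 64.9 TPM in aNE_T, where all 8 members stayed under 2 TPM, and 2.50 and 2.42 TPM in aNE_M. It was not called in aNE_M against aNE (−0.57, adjusted p = 0.213) and was lower in pNE_M than in aNE_M (−1.49 ± 0.33, adjusted p = 0.00715). WNT1, chosen for mention after its values were seen, was at or under 0.343 TPM in every library and was not tested. DMBX1, a midbrain gene chosen likewise, was 0.870 and 1.14 TPM in aNE_M and 0.706 and 0.832 TPM in day-2 aNE.

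The boundary factors differed by origin within the midbrain medium. OTX2 was 136 and 162 TPM in aNE_M and 4.30 and 5.38 TPM in pNE_M (−4.69 ± 0.14, adjusted p = 1.63e-10), and OTX1, its relative, was 10.9 and 11.6 TPM in aNE_M and listed at 0 or 0.0865 TPM in pNE_M (−3.55 ± 0.20). GBX2 was 16.2 and 9.67 TPM in aNE_M and 5.22 and 6.44 TPM in pNE_M, so it was not high in either. It had fallen from 172 and 216 TPM in pNE (−4.83 ± 0.20) and risen from 1.04 and 1.05 TPM in aNE (2.73 ± 0.20). The PAX2 level of 33 TPM in pNE_M stood beside about 5 TPM of OTX2 and of GBX2.

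**Figure D3:**
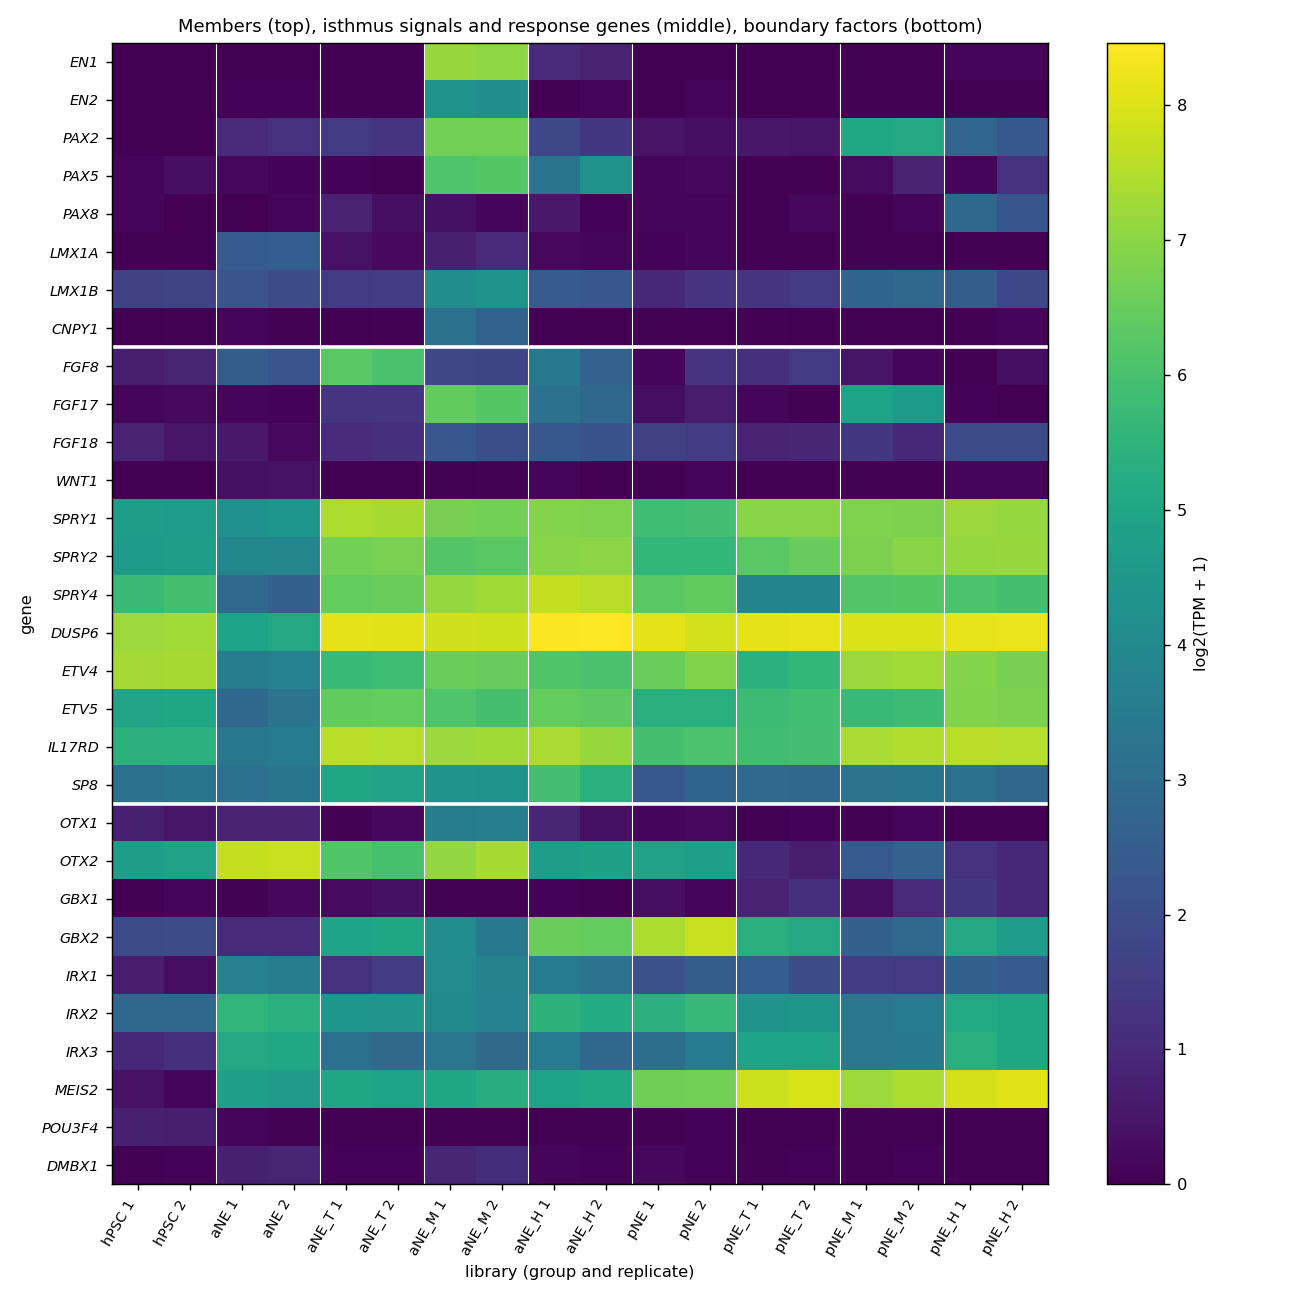
Level as log2(TPM + 1) (colour) in the 18 libraries (x axis) for the 8 members (top block), the 12 isthmus signals and response genes (middle) and the 10 boundary factors (bottom). EN1, EN2, PAX2, PAX5, CNPY1, FGF17 and OTX1 are brightest in aNE_M, OTX2 is brightest in day-2 aNE, WNT1 stays dark throughout and FGF8 is brightest in aNE_T.

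Markers of the midbrain floor plate and dopaminergic lineage, in which LMX1A and LMX1B act, were a list of 14, of which 10 were tested. MSX1, a homeobox gene of dorsal and ventral midline progenitors, rose in both origins, to 280 and 243 TPM in aNE_M (7.50 ± 0.20) and to 666 and 646 TPM in pNE_M (8.42 ± 0.20). NEUROG2, a proneural factor, was 24.8 and 14.2 TPM in pNE_M and at or under 0.220 TPM in aNE_M (4.12 ± 0.24), and PITX3, a dopaminergic factor, was 3.38 and 4.50 TPM against 0.529 and 0.290 TPM (1.81 ± 0.22). In pNE_M against aNE_M, 4 of 10 were higher and 1 lower, FOXA1, named after its values were seen, at 0.0781 and 0.333 TPM against 1.34 and 1.59 TPM (−1.04 ± 0.22). The floor plate factor FOXA2 fell from 1.63 and 2.19 TPM in pNE to 0.0890 TPM and a value listed at 0 in pNE_M (−1.47 ± 0.20). SHH, the floor plate signal, named after its values were seen, was at or under 0.034 TPM in aNE_M and pNE_M. In aNE_M against aNE 1 of 10 rose, MSX1, and 1 fell, RSPO2 (−1.71 ± 0.26). TH, the enzyme that marks dopaminergic neurons, was at or under 0.194 TPM in every library and is named after its values were seen. FERD3L was listed at 0 in all 18.

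In the hindbrain medium PAX5 and PAX8 were called between the origins. PAX2 was not, but it was called for its rise from day-2 pNE and for the difference of that change between origins. In anterior-derived cells PAX5 alone was called higher: aNE_H against aNE gave 1 higher and 1 lower member (10.1% of all genes called), PAX5 at 8.77 and 19.1 TPM (3.68 ± 0.35, adjusted p = 4.30e-06) and LMX1A at 0.153 and 0.0756 TPM (−2.33 ± 0.18). The 2 aNE_H libraries lay far apart for PAX5, and the difference was 4.20 without aNE_H replicate 1 and 3.15 without aNE_H replicate 2. EN1 was listed at 0 in aNE and reached 0.989 and 0.749 TPM (adjusted p = 6.50e-04), under the size threshold. It was called higher with a pseudocount of 0.1 (3.27) and, narrowly, with quantile normalization (1.01).

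Posterior-derived cells in the hindbrain medium raised 3 of 8 members over pNE and lowered none (12.3% of all genes called, 4.47% higher). PAX8 went from 0.0990 and 0.0938 TPM to 6.25 and 3.84 TPM (2.43 ± 0.25, adjusted p = 6.25e-06), and PAX2 from 0.369 and 0.276 TPM to 5.71 and 3.98 TPM (2.13 ± 0.18, adjusted p = 9.81e-07). LMX1B, from 0.919 and 1.50 TPM to 4.63 and 2.61 TPM, passed narrowly (1.04 ± 0.21, adjusted p = 0.00163) and lost its call without pNE replicate 1 (0.85), without pNE_H replicate 1 (0.72) and in a fit of the compared libraries alone (adjusted p = 0.109, the highest of its alternatives, whose lowest was 1.84e-04). PAX5 was 0.111 and 1.30 TPM in pNE_H and was not called. For PAX8, which passed the filter only through pNE_H, a rise was bound to appear.

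Between the origins in hindbrain medium, 1 member was higher and 1 lower in posterior-derived cells (6.83% of all genes called). PAX8 was higher by 2.23 ± 0.25 (adjusted p = 2.55e-05) and PAX5 was lower (−3.13 ± 0.35, adjusted p = 2.33e-05). Both lost their call in a fit of the compared libraries alone, with adjusted p = 0.0601 for PAX8 (range over alternatives 1.72e-05 to 0.0601) and 0.0876 for PAX5 (1.11e-05 to 0.0876). PAX2 was 2.55 and 1.59 TPM in aNE_H; its difference of 0.93 ± 0.18 missed the size threshold but passed it without aNE_H replicate 1 (1.16) or without pNE_H replicate 2 (1.14). The difference of the day-2 to day-4 changes was called for 4 members (7.83% of all genes): PAX2 (1.66 ± 0.25), PAX8 (2.15 ± 0.35) and LMX1A (2.23 ± 0.25) higher, and PAX5 lower (−3.14 ± 0.49). For PAX8 it missed the threshold with a pseudocount of 0.1 (adjusted p = 0.0597, the highest of a range from 5.38e-04). The LMX1A value came from the fall in anterior-derived cells, since pNE held under 0.1 TPM and pNE_H was listed at 0. PAX8 passed the filter only through pNE_H and LMX1A only through aNE. A difference was bound to appear for them where that group took part, so the counts of this paragraph are descriptions.

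Other tissues that use PAX2 and PAX8 were checked by lists. Of 13 otic and posterior placode genes, 8 were at 1 TPM or more in both pNE_H libraries, with a sum of 219 to 222 TPM against 142 to 143 TPM in pNE_M. This was not particular to pNE_H. The sum was 280 to 286 TPM in aNE_T and 205 to 225 TPM in aNE_H, where 9 of the genes reached 1 TPM in both libraries. PAX8 was at or under 0.767 TPM in aNE_T and aNE_H. SOX10, a neural crest and otic factor, was 16.2 and 12.7 TPM in pNE_H (3.01 ± 0.21 over pNE). Of the 10 tested, 4 were higher and 4 lower in pNE_H than in pNE, among the lower DLX5 (−2.45 ± 0.15). SPRY1, an FGF-response gene, held 145 and 140 TPM of the pNE_H sum. OC90 was listed at 0 and HMX2 and HMX3 were at or under 0.125 TPM in pNE_H, named after their values were seen. Of 10 intermediate mesoderm and kidney genes, 9 were tested and 6 rose in pNE_H over pNE, with a median of 1.75 against −0.08: FOXC1 (3.84 ± 0.15), LHX1 (3.06 ± 0.27), EYA1 (2.13 ± 0.21) and GATA3 (1.96 ± 0.22) led. WT1, a kidney gene named after its values were seen, was at or under 0.0435 TPM in pNE_H. The part of these genes in the PAX8 level was not tested.

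**Figure D4:**
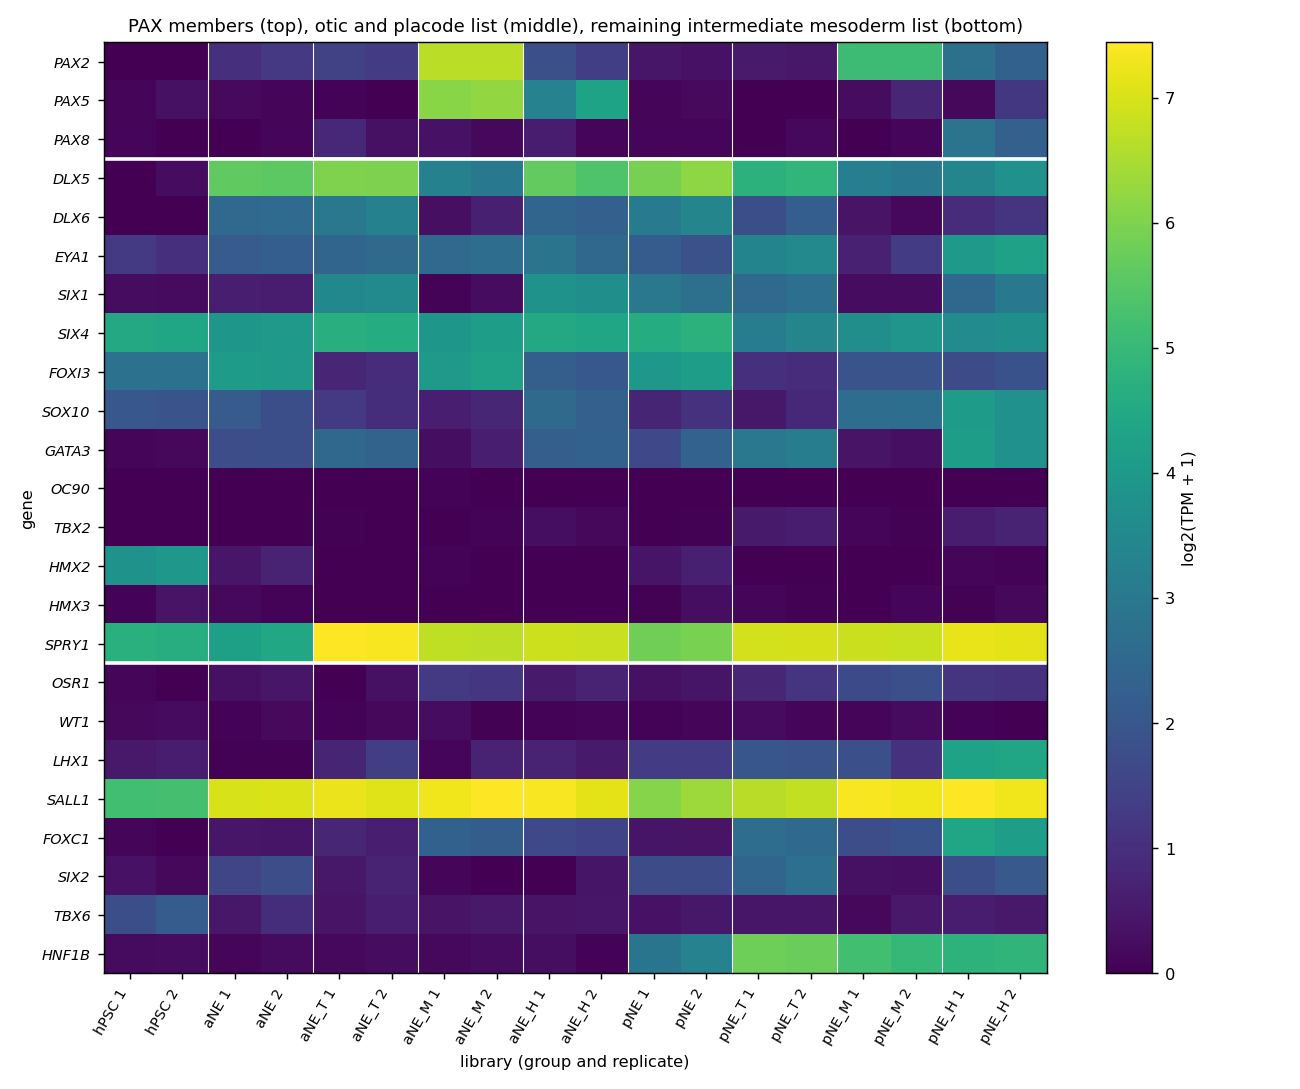
Level as log2(TPM + 1) (colour) in the 18 libraries (x axis) for the 3 PAX members (top block), the otic and placode list (middle) and the rest of the intermediate mesoderm list (bottom). PAX8 is brightest in the pNE_H columns, where SOX10, GATA3, EYA1, LHX1 and FOXC1 are also at their brightest, while OC90 and WT1 stay dark.

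In forebrain medium the members stayed low. From aNE to aNE_T, LMX1A fell to 0.322 and 0.153 TPM (−2.18 ± 0.18, adjusted p = 1.06e-06) and the other 7 were not called (9.03% of all genes were). From pNE to pNE_T no member was called, and none had an unadjusted p under 0.05 by limma (10.2% of all genes were called). Between pNE_T and aNE_T no member was called and 1, PAX2, had an unadjusted p under 0.05 (7.77% of all genes were called). It was 0.446 and 0.394 TPM in pNE_T and 1.73 and 1.47 TPM in aNE_T (−0.87 ± 0.18, adjusted p = 0.00316). The change from day 2 differed by origin for LMX1A alone (2.09 ± 0.25, 7.14% of all genes called). This value came from the fall in anterior-derived cells, since LMX1A was under 0.1 TPM in pNE and listed at 0 in pNE_T. LMX1A passed the filter only through aNE, so a fall from aNE and a difference in this contrast were bound to appear.

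Between the media, PAX5 was the 1 member called in aNE_H over aNE_T (6.60% of all genes called). PAX2 (4.58 ± 0.18) and LMX1B (1.40 ± 0.21) were higher in pNE_M than pNE_T (8.60% called). Against pNE_H, pNE_M had PAX2 higher (2.56 ± 0.18) and PAX8 lower (−2.50 ± 0.25; 5.99% called). pNE_H exceeded pNE_T in PAX2 and PAX8 (5.03% called). Tested as differences of differences, the step from forebrain to midbrain medium was smaller in posterior-derived cells for EN1, EN2, PAX5, LMX1B and CNPY1 (7.63% of all genes called). The step from hindbrain to midbrain medium, posterior-derived minus anterior-derived, was lower for 7 members, all but LMX1A (6.99%). PAX5 lost that call with a pseudocount of 0.1 and in a fit of the compared libraries alone (adjusted p up to 0.169 over its alternatives, from 0.00113), and LMX1B lost it without pNE_H replicate 1 (−0.98) and in a fit of the compared libraries alone (adjusted p = 0.0737, range from 0.00221). The step from forebrain to hindbrain medium was larger for PAX2 and PAX8 and smaller for PAX5 (5.37%). EN1, EN2 and CNPY1 passed the filter only through aNE_M and PAX8 only through pNE_H. Where these groups entered a comparison of this paragraph, a difference was bound to appear for these genes. The numbers of members called are therefore descriptions.

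The order of the group means shows where neighbours could be separated. For PAX2, aNE_M stood above pNE_M, and pNE_M above pNE_H; from pNE_H downwards no neighbouring step was called. For PAX5, aNE_M stood above aNE_H and aNE_H above pNE_H, and the remaining 7 groups were not separable step by step. For LMX1B only the step from aNE_M to pNE_M was called, and no library was at 0, the lowest mean being 1.21 TPM in pNE. For EN1, EN2, CNPY1, PAX8 and LMX1A only the step below the highest group was called.

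Likeness of pattern was measured as Pearson's r of group means over the 9 groups, among 12434 genes with a symbol and at least 5 TPM in their highest group; these values are descriptions, and a single high group suffices for a value near 1. EN2 was most like CNPY1 (r = 0.999), then DKK4 (0.998) and TRIM51BP (0.996). EN1 was like TRIM51BP (0.998) and DKK4 (0.995), and CNPY1 was most like EN2, DKK4 (0.996) and TRIM51BP (0.993). PAX2 was nearest to TTC29 (0.973), HES7 and MFSD5, and PAX5 to NAA30 (0.964), EOMES and DERL1. PAX8 was nearest to LGMN (0.973), C1QL4 and EXOC3L2, LMX1B to ABCA9 (0.970), TTC23 and SP7, and LMX1A to ZC3H4 (0.945), LMO1 and TBX10. No member of the PAX trio was among the 3 genes nearest to another.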

How the data were processed

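Poly-A RNA of 18 H1 libraries was sequenced. The authors deposited TPM values, 1 row per gene; per the submitters' processing notes, bcl2fastq, FastQC, Trim Galore, kallisto and deepTools were used with build hg38, without versions or roles. Genes that reached 1 TPM in 2 or more libraries (17033 of 37550) were taken as log2(TPM + 1) and fitted with limma 3.58.1 (R 4.3.3), with 1 mean per group over all 18 libraries, 9 residual degrees of freedom and a variance trend; p-values were two-sided and Benjamini-Hochberg adjusted over all tested genes. There were 18 comparisons of pairs of groups, many sharing libraries, and 6 interactions. The fit was tested on simulated data. The members and the gene lists were chosen with earlier results of these data known. Named were all members, up to 4 called genes of largest difference per list and comparison, list genes listed at 0 in all libraries, and the 3 genes most like each member; others are marked. A gene that this rule would name is not reported here. Alternatives were a pseudocount of 0.1, no filter, a 5 TPM filter, median-ratio scaling, quantile normalization, the compared libraries only, adjusted p alone, no variance trend, a replicate block and leaving out each library. Promoter windows came from RefSeq (GRCh38.p14).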

Additional observations from a re-analysis of the deposited data

Results flagged for a closer look

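Each of these is a difference between origins in the same step, posterior-derived minus anterior-derived change on the log2(TPM + 1) scale, that was called by limma's interaction test (adjusted p under 0.05 and a size of at least 1). Where a gene was listed at 0 in a group the value depends on the pseudocount and is no fold. EN1, EN2 and CNPY1 passed the filter only through aNE_M, PAX8 only through pNE_H and LMX1A only through aNE. Where that group took part, a difference was bound to appear for the gene.

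From day 2 to day 4 in midbrain medium the values were −7.08 for EN1, −4.16 for EN2, −5.66 for PAX5, −2.84 for CNPY1 and 1.51 for LMX1A. The LMX1A value was not called with a pseudocount of 0.1 (1.57). In forebrain medium LMX1A gave 2.09. In each medium the LMX1A value came from the fall in anterior-derived cells, since posterior-derived cells held under 0.1 TPM at both days. In hindbrain medium the values were 1.66 for PAX2, −3.14 for PAX5, 2.15 for PAX8 and 2.23 for LMX1A. With a pseudocount of 0.1 the PAX8 value, 3.43, missed the threshold (adjusted p = 0.0597).

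For midbrain against forebrain medium the values were −7.08 for EN1, −4.18 for EN2, −5.61 for PAX5, −1.41 for LMX1B and −2.93 for CNPY1. For midbrain against hindbrain medium they were −6.31 for EN1, −4.12 for EN2, −2.51 for PAX2, −2.52 for PAX5, −2.42 for PAX8, −1.30 for LMX1B and −2.99 for CNPY1. The PAX5 value was not called with a pseudocount of 0.1 (−2.57) or in a fit of the compared libraries alone. The LMX1B value was not called without pNE_H replicate 1 (−0.98) or in a fit of the compared libraries alone (adjusted p = 0.0737). For hindbrain against forebrain medium they were 1.80 for PAX2, −3.09 for PAX5 and 2.72 for PAX8.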

How the results depend on the processing

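Counts of members called were recomputed under each alternative. The share of all genes called is given for the main rule only, so these counts describe the members and cannot be set against a background. With a pseudocount of 0.1 the count was 1 for pNE against hPSC, 3 for pNE against aNE, 2 for pNE_T against aNE_T, 4 for pNE_H against aNE_H and 3 for aNE_H against aNE_T, and the PAX2 origin difference turned to 0.014 from day 2 to day 4 in midbrain medium and to 0.10 for midbrain against forebrain medium. A 5 TPM filter, which removes LMX1A and PAX8, left 1 for aNE against hPSC, 0 for pNE against aNE, 1 for pNE_H against aNE_H, 0 for aNE_T against aNE, 1 for aNE_H against aNE, 1 for pNE_M against pNE_H, 1 for pNE_H against pNE_T, and 0 and 2 for the origin difference in forebrain and hindbrain medium. Quantile normalization gave 1 for aNE against hPSC and 3 for aNE_H against aNE_T. The compared libraries alone gave 0 for pNE_H against aNE_H. With adjusted p alone the count was 1 for pNE against hPSC, 3 for pNE against aNE, 1 for pNE_T against aNE_T, 4 for pNE_H against aNE_H, 2 for aNE_T against aNE and 3 for aNE_H against aNE_T. Leaving out 1 library at a time, pNE against aNE ranged from 1 to 2; the lone library of a group was assumed to vary like the other groups. Causes were not tested. The replicate block left all 24 counts and all 99 single values on their side of the threshold; replicate numbers showed no pairing, since the correlation of replicate deviations between groups lay between −0.0896 and 0.0762 over 36 pairs of groups, 20 of them above 0. The depth is unknown, so no detection limit can be given.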
